A study of Mus musculus with 6 samples.

Results

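The unfolded protein response and the integrated stress response were described here through 38 genes, named in a list of ER stress sensors, ATF4 targets and genes of ER folding and degradation. All 38 were found among the 22322 genes of the deposited table by their Ensembl identifiers. RNA-seq had been done on the arcuate nucleus (ARC) of the hypothalamus, cut from 20 μm frozen brain sections by laser capture microdissection (LCM). Male mice were kept from 4 weeks of age for 16 weeks on normal chow with 16.5% fat (NCD) or on a diet with 60% fat (HFD), and each diet had 3 samples. The area cut was the part of the ARC rich in Kiss1 neurons, which the study made visible in the offspring of Kiss1-Cre and R26R-EYFP mice. The study also used C57BL/6J wild type mice, and the sources used here do not state for each sample which of these it came from. Nothing said whether a sample was 1 mouse or a pool, so the p-values measured the spread between these samples, which may be technical. Neither a chemical stressor nor a stress-free reference was among the groups, so the NCD samples were the only background.

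Proteins that enter the endoplasmic reticulum (ER) must fold there, and 3 sensors in its membrane, IRE1 (*Ern1*), PERK (*Eif2ak3*) and ATF6 (*Atf6*), respond when unfolded protein builds up. IRE1 splices the *Xbp1* mRNA, ATF6 is cleaved to release a transcription factor, and PERK phosphorylates the translation factor eIF2α, so that the cell makes less protein while chaperone and degradation genes are induced. Other eIF2α kinases, such as GCN2 (*Eif2ak4*) in amino acid shortage, reach the same point, called the integrated stress response (ISR), in which ATF4 turns on genes of amino acid supply and, under lasting stress, CHOP (*Ddit3*). In the hypothalamus this response has been studied in neurons under obesogenic diets because of its link with leptin and insulin signalling. Splicing, cleavage and phosphorylation are not seen in gene-level counts, which measure mRNA abundance only.

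The libraries held 15925648, 9937632 and 6882449 counts in NCD samples 1 to 3 and 8024664, 10479778 and 5171381 counts in HFD samples 1 to 3. An amount of 3 counts, taken as the smallest detectable, came to between 0.188 CPM (counts scaled to library size) in NCD sample 1 and 0.58 CPM in HFD sample 3, a limit that covers counting error only. Of 8 ARC neuron markers, 7 had reads in all 6 samples, led by *Cartpt* at a mean of 749 FPKM, a level per transcript length and library size. The other, *Kiss1*, had no reads in NCD sample 1 and HFD sample 1 and between 21 and 42 reads in the remaining samples. *Avp*, a marker of magnocellular neurons that lie outside the ARC, was more abundant, at 3475 FPKM.

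All 38 stress response genes had reads, over a wide range of levels. Per length, *Canx*, the lectin chaperone calnexin, was the most abundant at a mean of 179 FPKM over the 6 samples. The disulfide isomerase *Pdia6* at 135 FPKM, the secreted ER factor *Manf* at 129 FPKM, calreticulin (*Calr*) at 117 FPKM and *Xbp1* at 112 FPKM came next. Among the ISR transcription factors the mean was 45.9 FPKM for *Atf4*, 39.5 FPKM for *Ddit3* and 2.39 FPKM for *Atf5*. The sensor *Ern1* reached 1.68 FPKM, and the lowest means were those of *Derl3*, a degradation channel protein of secretory cells, at 0.882 FPKM and of the pseudokinase *Trib3* at 0.263 FPKM. The plot of levels per length has *Xbp1* and 5 folding genes at the top and *Trib3* and *Derl3* alone at the bottom.

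**Figure D1:**
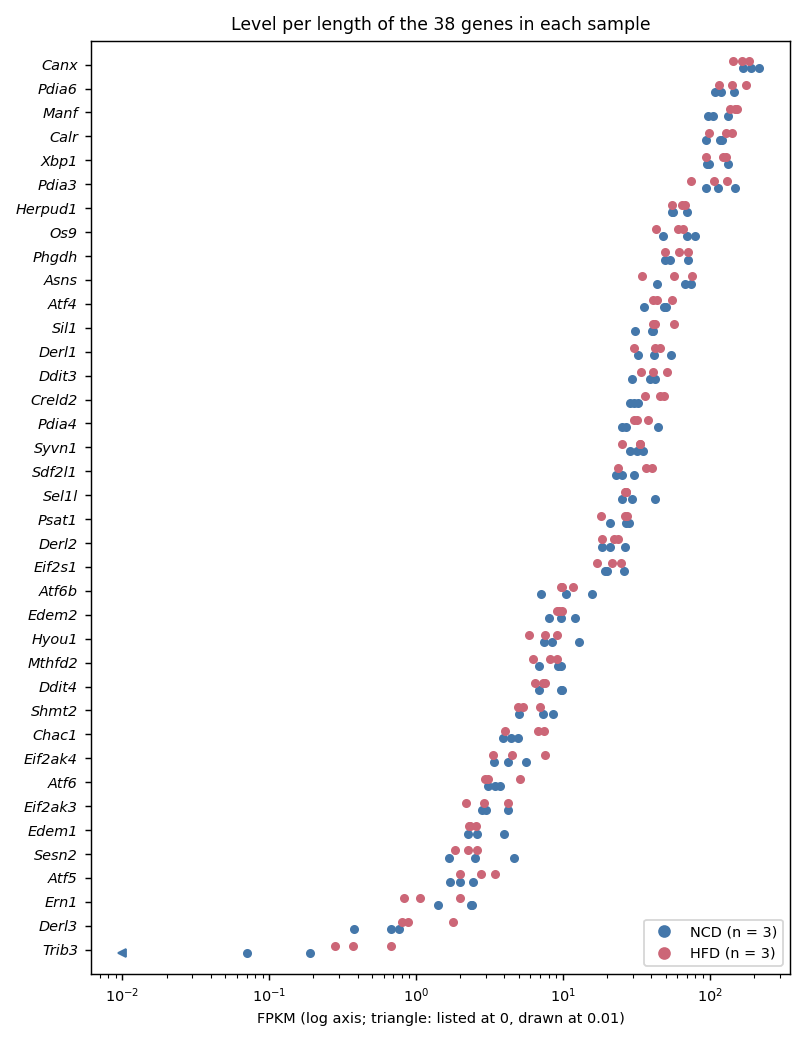
FPKM of each of the 38 genes in the 3 NCD (blue) and 3 HFD (red) samples, on a log axis, with genes ordered by their mean. Canx was highest with a mean of 179 FPKM, Trib3 was lowest with a mean of 0.263 FPKM and was listed at 0 in 1 NCD sample, and for most genes the points of the diets mixed.

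The first question was whether the diets differed in these genes. By edgeR's quasi-likelihood test, 36 of the 38 could be tested after the filter on low counts, and none passed an adjusted p of 0.05 (the lowest was 0.999). In all genes, 8 of 14188 (0.0564%) passed. At an unadjusted p under 0.05 there were 2 of the 36 (5.56%), beside 2.30% of all genes. These were *Creld2*, higher in HFD (beside 1.21% of all genes in that direction), and *Hyou1*, lower in HFD (beside 1.09%). With a fold over 1.5 as well, which is the threshold of the study's methods, *Hyou1* alone passed (2.78%, beside 1.90% of all genes). DESeq2's Wald test also gave 0 at the adjusted and 2 at the unadjusted threshold, the latter beside 2.28% of all genes. The fold change was above 0 for 16 genes (44.4%, beside 50.5% of all genes) and below 0 for 20. The median log2 fold change was −0.04, beside 0.00 over all genes, and it turned positive in the fit that took the log2 total count as a covariate (0.10), without NCD sample 1 (0.01) or without HFD sample 3 (0.08). It was also positive when the replicate number was added to that covariate as a block. The median size of the log2 fold change, whatever its sign, was 0.13 for the 36 and 0.17 for all genes. For 26 of the 36 the fold change was smaller than its own SE.

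The size of change that 3 samples per diet could show was given by the 95% intervals. From the estimate to either end they reached 0.52 on the log2 scale in the median, with a range of 0.40 to 0.90. For 10 genes the whole interval lay inside a 1.5-fold change in either direction. For 12 the interval still allowed a 1.5-fold higher level in HFD, and for 15 a 1.5-fold lower one. A p that misses the threshold therefore does not show equal levels in these genes. The plot of fold changes shows the intervals by role.

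**Figure D2:**
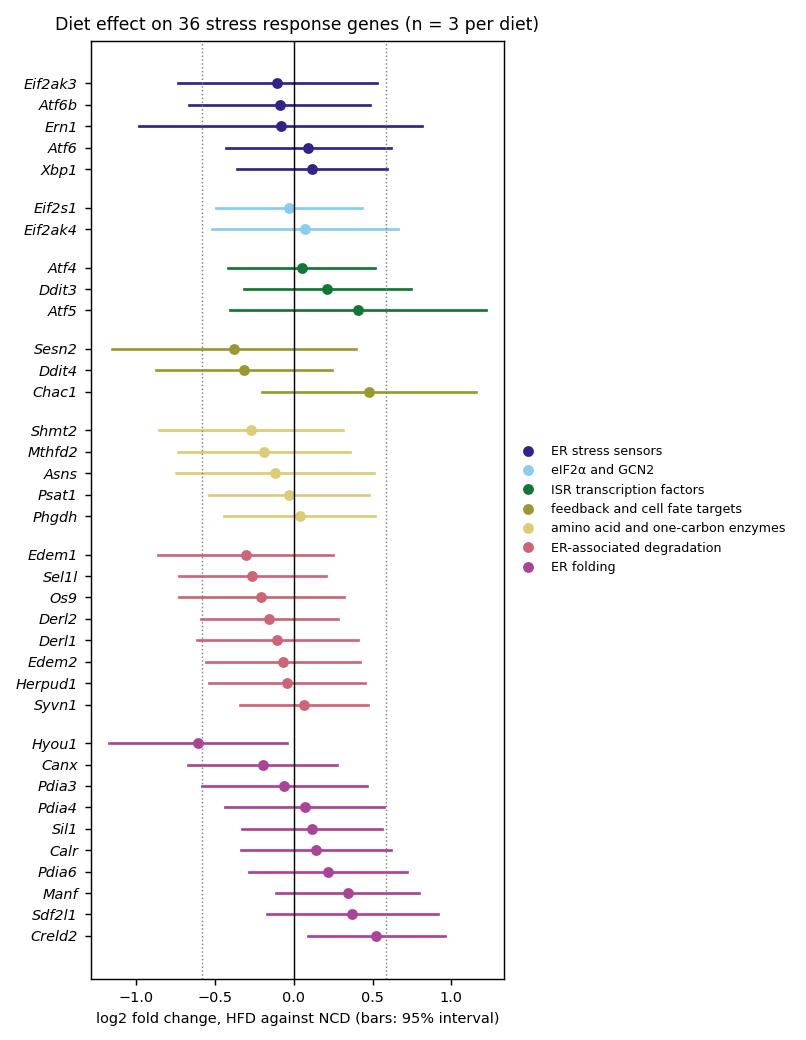
Log2 fold change of HFD against NCD (points) with its 95% interval (bars) for the 36 tested genes, grouped by role (colours), with dotted lines at a 1.5-fold change. The intervals of Creld2 (0.09 to 0.96) and Hyou1 (−1.17 to −0.04) lie to one side of 0, and the other 34 include it.

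Promoters of many of these genes carry short elements that the response's transcription factors bind. The 3 described here were searched on both strands from 250 bases before to 50 bases after the RefSeq start sites of GRCm38.p6. The ER stress response element (ERSE; CCAAT, 9 bases of any kind, CCACG), bound by NF-Y and ATF6 or XBP1, was found in 6 of the 33 listed genes with a promoter entry (18.2%) and in 37 of 27025 genes (0.137%). ERSE-II (ATTGG, 1 base of any kind, CCACG), which shares the letters CCACG with ERSE, was found in *Herpud1* alone among the listed genes and in 12 genes overall (0.0444%). The C/EBP-ATF response element (CARE; TGATG, 1 base of any kind, AA), bound by ATF4 with a C/EBP partner, was found in *Asns*, *Chac1*, *Trib3* and *Herpud1* among the 33 (12.1%) and in 4.51% of all genes. The windows that follow show the 6 ERSE matches, the ERSE-II match and the CARE of *Chac1*, the CARE gene with the highest fold change among those tested. Each reads 5′ to 3′ on the gene's own strand, with the fixed letters of the element in capitals. A window with CGTGG to the left of ATTGG, or with TTgCATCA, holds the element on the other strand.
Creld2 promoter, ERSE, chr15:88819500-88819558, plus strand: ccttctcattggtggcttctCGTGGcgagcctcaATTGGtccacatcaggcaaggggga
Pdia6 promoter, ERSE, chr12:17266471-17266529, plus strand: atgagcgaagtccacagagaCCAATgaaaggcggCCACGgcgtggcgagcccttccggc
Calr promoter, ERSE, chr8:84847055-84847113, minus strand: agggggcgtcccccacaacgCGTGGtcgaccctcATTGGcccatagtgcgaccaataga
Canx promoter, ERSE, chr11:50325780-50325838, minus strand: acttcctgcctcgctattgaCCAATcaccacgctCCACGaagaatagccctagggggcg
Syvn1 promoter, ERSE, chr19:6046512-6046570, plus strand: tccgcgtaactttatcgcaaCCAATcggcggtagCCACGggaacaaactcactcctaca
Derl3 promoter, ERSE, chr10:75893222-75893280, plus strand: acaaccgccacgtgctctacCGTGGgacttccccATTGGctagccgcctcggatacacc
Herpud1 promoter, ERSE-II, chr8:94386357-94386407, plus strand: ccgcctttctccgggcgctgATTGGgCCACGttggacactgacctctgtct
Chac1 promoter, CARE, chr2:119351029-119351076, plus strand: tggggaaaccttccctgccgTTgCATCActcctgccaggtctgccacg
The 5 tested genes with an ERSE had log2 fold changes from −0.20 (*Canx*) to 0.52 (*Creld2*), 4 above 0 and 1 below, with a median of 0.14. The 25 tested genes with a promoter entry and neither ERSE nor ERSE-II had a median of −0.07, 9 above 0 and 16 below. With *Herpud1* added for its ERSE-II, 4 of 6 were above 0 and the median was 0.10. The 3 tested genes with a CARE had a median of −0.04, 1 above 0 and 2 below. These values are a description, since a match of letters shows no binding.

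The folding genes held both of the genes at an unadjusted p under 0.05. *Creld2* (GRCm38 chr15:88819646-88826683, plus strand), which encodes a secreted ER protein with disulfide isomerase activity and carries one of the ERSE matches above, measured 42.2, 39.6 and 43.3 normalized CPM in NCD samples 1 to 3. In HFD samples 1 to 3 it measured 62.4, 68.4 and 48.5 CPM. Every HFD sample was above every NCD sample, HFD sample 3 by the least, and the NCD samples lay close together. The log2 fold change was 0.52 ± 0.20 (SE, n = 3 per diet), with an unadjusted p of 0.0225 and an adjusted p of 0.999 by edgeR and p = 0.1 by the exact permutation test, the smallest that 3 samples against 3 allow. Among all genes, 6.47% had diets that did not overlap, and 3.24% had HFD higher without overlap. The deposited FPKM gave the same picture, with 30.5 ± 1.78 in NCD and 43.6 ± 6.29 in HFD (mean ± SD, n = 3). The unadjusted p was above 0.05 without NCD sample 2 (0.0803), HFD sample 1 (0.0863) or HFD sample 2 (0.0983), and the fold change was above 0 in all 17 alternatives, from 0.41 to 0.65.

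*Hyou1* (GRCm38 chr9:44379490-44392369, plus strand), the large ER chaperone also called ORP150, measured 31.3, 37.9 and 59.4 CPM in NCD samples 1 to 3. The HFD samples measured 33.1, 26.5 and 24.2 CPM. NCD sample 3 stood well above the other five, and the diets overlapped because HFD sample 1 exceeded NCD sample 1. The log2 fold change was −0.61 ± 0.26 (SE, n = 3 per diet), with an unadjusted p of 0.0369 and an adjusted p of 0.999 by edgeR and p = 0.2 by the exact permutation test. Without NCD sample 3 it was −0.30 ± 0.24 (SE). The unadjusted p was above 0.05 without that sample (0.235), without HFD sample 2 (0.0852) or without HFD sample 3 (0.109). On the FPKM scale the values were 7.43, 8.48 and 12.96 in NCD and 7.51, 5.84 and 9.12 in HFD. There HFD sample 3 was the highest of its diet, whereas in CPM it was the lowest, and the log2(FPKM + 1) difference by limma was −0.31 ± 0.26 (SE), also short of the unadjusted threshold. The direction was the same in all 17 alternatives, with p under 0.05 in 11 of them, and the size depended most on NCD sample 3 and on the unit.

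The other 8 folding genes did not pass the unadjusted threshold in the fit with diet alone. *Sdf2l1*, a subunit of an ER chaperone complex, had a log2 fold change of 0.37 ± 0.25 (SE). For *Manf*, which is secreted under ER stress, it was 0.34 ± 0.21. When single samples were left out, the unadjusted p by edgeR ran from 0.0299 to 0.506 for *Sdf2l1* and from 0.0273 to 0.352 for *Manf*. Each gene was under 0.05 in 1 of the 17 alternatives. In both genes HFD samples 1 and 2 were above all NCD samples and HFD sample 3 was not, at 123 CPM for *Manf*, inside the NCD range, and at 25.7 CPM for *Sdf2l1*, below it. The disulfide isomerases *Pdia6*, *Pdia4* and *Pdia3* had log2 fold changes of 0.22, 0.07 and −0.06. The lectin chaperones differed in sign, with 0.14 for *Calr* and −0.20 for *Canx*. The nucleotide exchange factor *Sil1* had 0.11. Of the 10 folding genes 7 were above 0 and 3 below, with a median of 0.13.

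**Figure D3:**
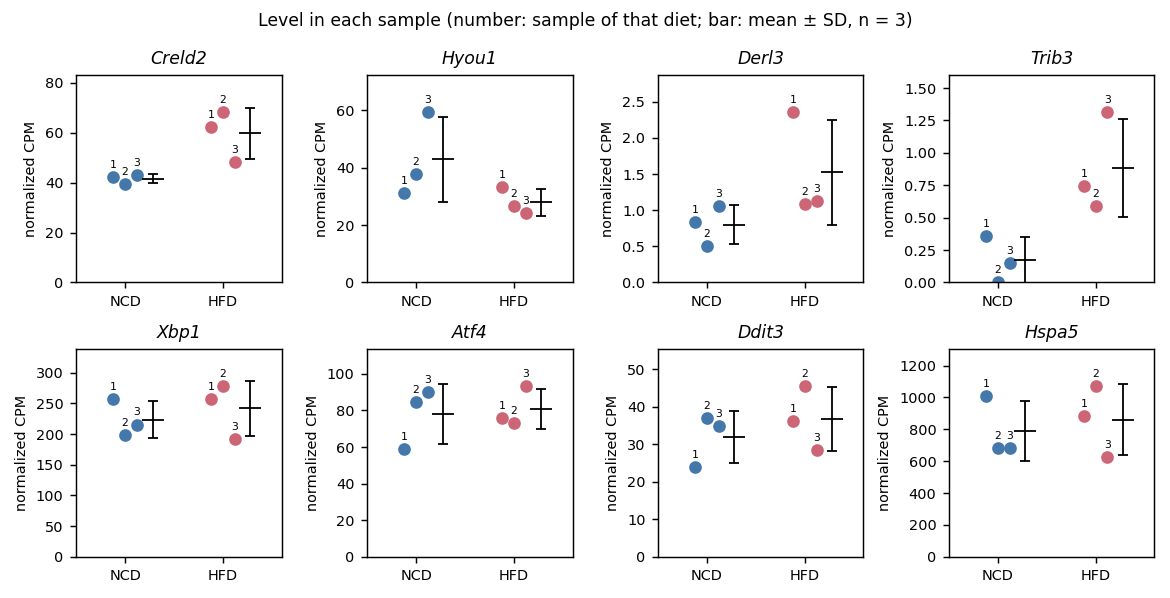
Normalized CPM in each sample (points, numbered by sample) with the mean ± SD of the diet (bars, n = 3) for Creld2, Hyou1, the rarely detected Derl3 and Trib3, the transcription factors Xbp1, Atf4 and Ddit3, and the chaperone Hspa5. The HFD points of Creld2 lie above all NCD points, those of Derl3 and Trib3 do so at under 3 CPM, and the other 5 genes overlap.

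The ER stress sensors, with *Xbp1* and *Atf6b* grouped with them, had log2 fold changes between −0.10 and 0.12 in counts, with mixed signs. *Xbp1* measured 257, 198 and 216 CPM in NCD samples 1 to 3 and 257, 278 and 192 CPM in HFD samples 1 to 3. The highest and the lowest value were both in HFD, and the diets overlapped throughout. Its log2 fold change was 0.12 ± 0.22 (SE), and the counts do not separate the spliced from the unspliced form. *Atf6* had 0.09, and its paralogue *Atf6b*, *Eif2ak3* and *Ern1* had −0.09, −0.10 and −0.08. *Ern1* had few reads, from 17 in NCD sample 3 to 149 in NCD sample 1, and the widest interval of all, −0.98 to 0.82. Its value also depended on the unit and the covariate, at −0.43 on log2(FPKM + 1), −0.67 on log2(FPKM + 0.1) and 0.28 in the fit with the log2 total count, and none of these passed the unadjusted threshold. *Eif2s1*, which encodes eIF2α itself, had a log2 fold change of −0.03 and *Eif2ak4* one of 0.07.

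The 3 ISR transcription factors had fold changes above 0, and none passed the unadjusted threshold. For *Atf4* the sign was the same in 13 of 17 alternatives, with values down to −0.17. *Atf4* measured 59.1, 84.8 and 90.03 CPM in NCD samples 1 to 3 and 75.7, 73 and 93.2 CPM in HFD samples 1 to 3. The diets overlapped, with NCD sample 1 the lowest of all. The log2 fold change was 0.05 ± 0.22 (SE), with an interval of −0.42 to 0.52, and *Atf4* is controlled largely at translation, which counts do not measure. *Ddit3*, whose product CHOP promotes cell death under lasting stress, measured 24, 36.9 and 34.9 CPM in NCD and 36.3, 45.4 and 28.6 CPM in HFD. The lowest value was in NCD and the highest in HFD, with the rest mixed. Its log2 fold change was 0.21 ± 0.24 (SE). *Atf5*, with 26 to 57 reads per sample, had 0.40 ± 0.37.

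The genes downstream of ATF4 did not move one way. *Chac1*, which breaks down glutathione, measured 7.7, 7.32 and 6.61 CPM in NCD and 11.05, 12.5 and 6.39 CPM in HFD. HFD samples 1 and 2 were above all NCD samples and HFD sample 3 was below them. The log2 fold change was 0.48 ± 0.31 (SE), short of the unadjusted threshold in the fit with diet alone. When single samples were left out, its unadjusted p by edgeR ran from 0.0305 to 0.447. The mTORC1 inhibitors *Ddit4* and *Sesn2* had −0.32 ± 0.26 and −0.38 ± 0.36. The value of *Sesn2* turned positive without NCD sample 1 (0.06), which at 15.3 CPM was the highest of the 6, and in the fit with the log2 total count (0.09, or 0.14 with the replicate block added). Of the 5 enzymes of amino acid and one-carbon metabolism, 4 were below 0. This number was 2 in the fit with the log2 total count or without HFD sample 3, and 3 without NCD sample 2. It was 5 without NCD sample 1, NCD sample 3 or HFD sample 2. *Shmt2*, the mitochondrial serine hydroxymethyltransferase, had −0.27, its partner *Mthfd2* −0.19, asparagine synthetase (*Asns*) −0.12 and *Psat1* of serine synthesis −0.03. *Phgdh*, the first enzyme of serine synthesis, had 0.04.

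*Trib3* and *Derl3* lay under the filter on low counts. *Trib3*, an ATF4 and CHOP target that feeds back on both, had 6, 0 and 1 reads in NCD samples 1 to 3 and 6, 6 and 7 reads in HFD samples 1 to 3. In normalized CPM these were 0.361, 0 and 0.15 in NCD and 0.745, 0.591 and 1.31 in HFD. In CPM every HFD sample was above every NCD sample. In reads NCD sample 1, the largest library, equalled HFD samples 1 and 2, and 2 NCD samples were under 3 reads. Without the filter, over 18177 genes, its log2 fold change was 2.08 ± 1.05 (SE; adjusted p = 0.998 by edgeR). *Derl3* had 14, 5 and 7 reads in NCD and 19, 11 and 6 reads in HFD. In CPM these were 0.842, 0.508 and 1.05 in NCD and 2.36, 1.08 and 1.13 in HFD, which placed all HFD samples above all NCD samples, 2 of them only just. In reads NCD sample 1, with 14, exceeded HFD samples 2 and 3. The share of genes without overlap was taken only over the 14188 genes past the filter, so it gives no background for *Trib3* and *Derl3*. Its log2 fold change without the filter was 0.93 ± 0.70 (SE; adjusted p = 0.998 by edgeR).

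The genes of ER-associated degradation, which carry misfolded proteins back to the cytosol for destruction, were below 0 in 7 of the 8 tested, with a median log2 fold change of −0.13, and none passed the unadjusted threshold. That split did not hold under every alternative. In the fit that took the log2 total count as a covariate, 4 were below 0 and 4 above, with a median of 0.01, and without HFD sample 3, the smallest library, 5 were below and 3 above. Over the 17 alternatives *Herpud1* reached 0.15, *Derl1* 0.15, *Edem2* 0.11 and *Os9* 0.04. The lowest was *Edem1*, which trims mannose from misfolded glycoproteins, at −0.31 ± 0.26 (SE). *Sel1l*, the adaptor of the ubiquitin ligase HRD1, had −0.26 ± 0.21, and the lectin *Os9* had −0.21 ± 0.24. The channel proteins *Derl2* and *Derl1* had −0.16 and −0.10, *Edem2* −0.07 and the HRD1 partner *Herpud1* −0.04. *Syvn1*, which encodes HRD1, was the 1 above 0, at 0.06.

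The libraries differed in depth, so the normalized levels were compared with the total counts. Of the 36 genes 14 (38.9%) were ordered as the totals in both diets, beside 12.9% of all genes. The opposite order in both diets was found for 3 genes, *Calr*, *Atf4* and *Ddit4* (8.33%, beside 12.5% of all genes). The degradation genes gave 5 of the 14, namely *Derl1*, *Derl2*, *Os9*, *Sel1l* and *Herpud1*, and their median Pearson r with the log2 total count was 0.846. Over the 6 samples, *Derl1* had r = 0.954 (exact permutation p = 0.00139, adjusted p = 0.04 over 36 relations; Spearman's rho = 1, exact permutation p = 0.00278, adjusted p = 0.0545). The first of these is the smallest p that the orders of 6 samples allow. Without NCD sample 1 and HFD sample 3, r was 0.892. Among the 36 genes 6 had r above 0.9 (16.7%, beside 7.91% of all genes) and 2 had r below −0.9 (5.56%, beside 7.95%). In the median over the 36 genes, HFD sample 3, the smallest library, lay 0.26 below the mean of the 6 samples in log2 CPM (−0.26), and HFD sample 2 and NCD sample 1 lay above it (0.16 and 0.14). In all genes these medians were between −0.01 and 0.03. What stood behind the relation with the totals was not tested.

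**Figure D4:**
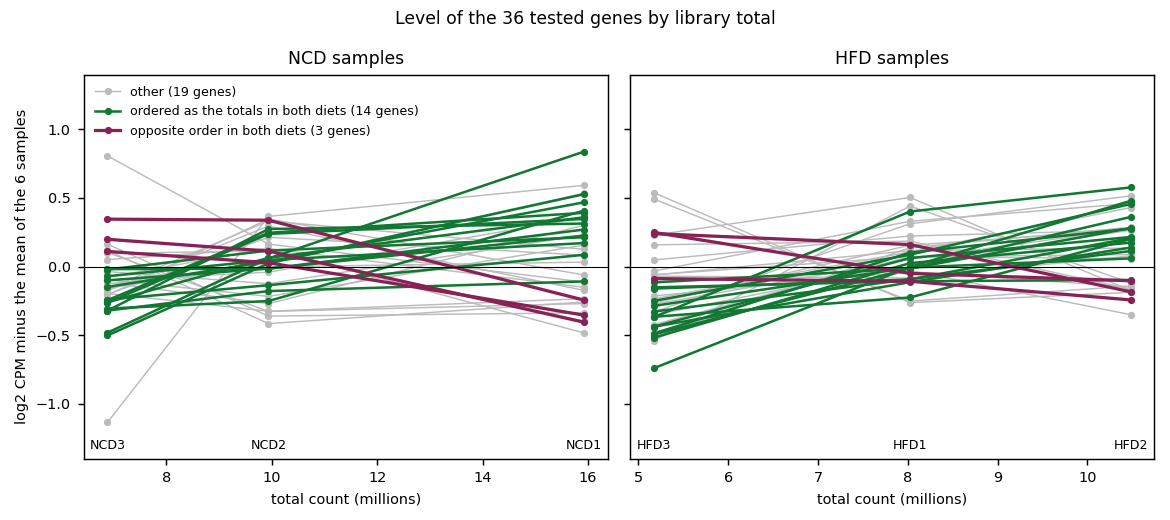
Log2 CPM of each of the 36 tested genes minus its mean over the 6 samples, against the total count of the library, with NCD on the left and HFD on the right. The 14 genes drawn in green rise from the smallest to the largest library in both diets, and the 3 in purple (Calr, Atf4, Ddit4) run the other way.

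In the fit that took the log2 total count as a covariate, 4 of the 36 genes had an unadjusted p under 0.05 by edgeR, beside 3.15% of all genes, and none had an adjusted p under 0.05. The 4 were *Creld2* (0.60 ± 0.17), *Hyou1* (−0.73 ± 0.21), *Pdia6* (0.39 ± 0.17) and *Chac1* (0.67 ± 0.30), with the log2 fold change ± SE in parentheses. The lowest adjusted p among them was that of *Creld2*, 0.713. With the replicate number added as a block, *Pdia6* and *Chac1* no longer had an unadjusted p under 0.05 by edgeR, and *Creld2* and *Hyou1* still did.

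Of 69 further genes of the same pathways, 67 could be tested. In this list 25 were above 0 and 42 below, while 50.5% of all genes were above 0. The median log2 fold change was −0.09, beside 0.00 over all genes. How this split changed with the log2 total count or with a sample left out was not tested. None passed the adjusted threshold by edgeR, and 1 passed the unadjusted one (1.49%, under the 2.30% of all genes). This was *Ero1l*, the oxidase that recharges disulfide isomerases, with 106, 66.3 and 65.1 CPM in NCD samples 1 to 3 and 53.01, 63.9 and 49.8 CPM in HFD samples 1 to 3. NCD sample 1 stood apart from the other five. The gene had a mean of 79.01 ± 23.1 CPM under NCD and 55.6 ± 7.41 CPM under HFD (SD, n = 3) and a log2 fold change of −0.51 ± 0.23 (SE; adjusted p = 0.999 by edgeR). The major ER chaperones had log2 fold changes of 0.12 for *Hspa5* (BiP), 0.11 for *Hsp90b1* (GRP94) and 0.12 for *Dnajc3*, with −0.16 for the co-chaperone *Dnajb9*. The eIF2α phosphatase subunits *Ppp1r15a* (GADD34) and *Ppp1r15b* had −0.36 and −0.19, and the stress factor *Atf3* had −0.35. The eIF2α kinases *Eif2ak1* and *Eif2ak2* had −0.11 and −0.18, and the cystine transporter *Slc7a11* had −0.15. None of these 10 passed the unadjusted threshold.

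The marker lists showed how far other genes stood apart between the diets in the same samples. The 2 magnocellular peptide genes *Avp* and *Oxt* summed to 2895, 5798 and 2530 CPM in NCD samples 1 to 3 and to 1308, 1390 and 1218 CPM in HFD samples 1 to 3. All HFD sums were lower than all NCD sums, with *Avp* the more abundant gene. Of 10 immediate early genes, which neurons switch on by activity, 10 were below 0 and 7 passed the adjusted threshold by edgeR (*Fos*, *Egr1*, *Egr2*, *Egr4*, *Junb*, *Nr4a1* and *Arc*). Their sums were 452, 733 and 632 CPM in NCD and 127, 131 and 172 CPM in HFD, with *Junb* the most abundant per length in the mean of all 6 samples (35.2 FPKM), close to *Egr1* (34.4 FPKM). All 6 tanycyte markers, led by *Vim*, were above 0, and their sums of 162, 139 and 197 CPM in NCD and 250, 136 and 349 CPM in HFD overlapped. All 6 pericyte and smooth muscle markers were below 0, with overlapping sums of 158 to 214 CPM in NCD and 156 to 185 CPM in HFD. The most abundant, *Rgs5*, had a log2 fold change of −0.002. The contractile genes *Acta2* and *Tagln* had −0.83 ± 0.28 and −1.05 ± 0.39 (SE; adjusted p = 0.999 by edgeR for both). Neither overlapped in CPM between the diets, which held for 6.47% of all genes. *Myh11*, also contractile, had −0.56 ± 0.40 (SE; adjusted p = 0.999 by edgeR), with overlap. All 5 red blood cell markers, led by *Hba-a2*, were below 0 (median log2 fold change −0.50), with overlapping sums of 781 to 2485 CPM in NCD and 822 to 1685 CPM in HFD. Of the 8 ARC neuron markers 7 were above 0 (median 0.43), and *Cartpt*, the most abundant, was higher in all HFD samples than in all NCD samples (log2 fold change 0.75 ± 0.25, SE; adjusted p = 0.999 by edgeR). Their sums overlapped, at 1279 to 2269 CPM in NCD and 1812 to 2179 CPM in HFD. The remaining 6 lists had overlapping sums. The median log2 fold change was −0.01 for neurons (led by *Snap25*), −0.13 for astrocytes (*Slc1a3*), −0.14 for oligodendrocytes (*Mbp*), 0.03 for microglia (*C1qa*), −0.003 for endothelium (*Cldn5*) and −0.05 for ependyma (*Rarres2*). Of the 6 genes of each list, 2 were above 0 and 4 below for astrocytes and for oligodendrocytes. For neurons, microglia, endothelium and ependyma 3 were above 0 and 3 below. Single genes stood further from 0 than these medians, among them *Gfap* (0.88), *C1qa* (0.46) and *Cldn5* (−0.48). The diets overlapped for *Gfap* and *C1qa* and not for *Cldn5*, each with an adjusted p of 0.999 by edgeR. No gene of these lists was at 0 in all samples. Their part in the values of the stress response genes was not tested, and in tissue samples fewer cells of a type and less RNA per cell cannot be told apart.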

How the data were processed

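ARC tissue of 3 NCD and 3 HFD samples was analysed. The labels mark the samples only as C or H. C was read as NCD and H as HFD because the deposited table compares these diets and its NCD and HFD means equal, within 0.01 FPKM for all 22322 genes, the means of the C and the H columns. Per the labels, mRNA was enriched with oligo(dT) beads. According to the methods, the authors aligned NovaSeq reads with HISAT2 and derived gene values with StringTie and RSEM, and the submitters' processing notes name mm10. The strand setting was not given in the sources used here, so reads of genes that share exon bases (*Atf5*, *Ddit3*, *Shmt2*, *Syvn1*, *Derl2*, *Pdia3*, *Pdia6* and *Manf* with a protein-coding neighbour) cannot be told apart. The deposited table holds read counts per gene, not normalized by the authors. It also holds deposited FPKM values, scaled for transcript length and library size. Its group means served for that check alone, and its columns of fold change, p-value and FDR by the authors were left out.

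Symbols and positions (1-based) came from GENCODE M21 on GRCm38, and 22267 of the 22322 identifiers had a symbol. Promoter sequences were those of RefSeq for GRCm38.p6, where 33 of the 38 genes had an entry (none for *Atf6*, *Derl1*, *Hyou1*, *Manf* and *Sil1*). Counts were filtered with filterByExpr, scaled by TMM and tested with the quasi-likelihood test of edgeR 4.0.16 (R 4.3.3), with diet as the only term and Benjamini-Hochberg adjustment over 14188 genes. Log2 CPM used a prior count of 2. Alternatives were other size factors, DESeq2 1.42.0, other filters, limma 3.58.1 on log2(FPKM + 1) or log2(FPKM + 0.1), the replicate number, the log2 total count, and each sample left out in turn. The code was tested on simulated data. Exact permutation tests were two-sided.

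The 38 genes, the further lists and the tests were chosen with earlier results of these data known. All 38 genes were named. Of the further pathway genes, those under an unadjusted p of 0.05 and 10 chosen by name were described, and of the marker lists the most abundant gene and those past the adjusted threshold, with *Oxt*, *Acta2*, *Tagln*, *Myh11* and *Gfap* added after their values were seen. Of the 38 genes, values in every sample were given for those at an unadjusted p under 0.05 or without overlap, for those under the filter, and for *Atf4*, *Ddit3* and *Xbp1*. Those of *Chac1* were added after they had been seen.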

Additional observations from a re-analysis of the deposited data

How the results depend on the processing

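Across 17 alternatives no stress response gene passed an adjusted p of 0.05 (the lowest was 0.604, for *Creld2* and *Manf* without NCD sample 3), and 16 of the 36 kept their sign in all. The number at an unadjusted p under 0.05 was 2, and it was 1 on log2(FPKM + 1) and 1 on log2(FPKM + 0.1), each with the filter on low values (*Creld2*). On log2(FPKM + 1) without that filter it was again 2, but these were *Creld2* and *Trib3*, both higher, and *Hyou1* was lost. It was 4 (beside 3.15% of all genes) in the fit that took the log2 total count as a covariate. When single samples were left out it was between 0 (without HFD sample 2) and 3 (without HFD sample 3). The share of all genes at that unadjusted threshold was not taken for the limma fits or with a sample left out. The counts there therefore have no such background. The count of all genes at an adjusted p under 0.05 was 8. It was 19 by DESeq2, 15 for genes with at least 1 count, 5 by limma with either pseudocount and 1 by limma without the filter, 15 with the log2 total count and between 1 (without NCD sample 2, HFD sample 1 or HFD sample 2) and 16 (without NCD sample 3) when single samples were left out; it was 4 without HFD sample 3. The count at p under 0.05 and a fold over 1.5 was 270. It was 427 for genes with at least 1 count, 179 when a mean of 50 or more counts was asked for, and between 195 (without HFD sample 1) and 982 (without NCD sample 3), with 606 without HFD sample 2. The cause was not tested.

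With the replicate number as a block (replicate block), all genes at an adjusted p under 0.05 numbered 17, and 20 with the log2 total count added. Neither fit changed a call of a stress response gene from the fit with diet alone. *Pdia6* and *Chac1*, at an unadjusted p under 0.05 by edgeR with the log2 total count, lost that call when the block was added. Same-numbered samples deviated together in 2 of 3 pairs (correlations −0.01, 0.11 and 0.37), and 3 of 6 samples correlated best with their own number, so the numbers were not taken to pair the samples. *Trib3* and *Derl3* had at most 7 and 19 reads in a sample.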
